A study of Homo sapiens with 24 samples.

Results

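The MAGE cancer-testis antigens described here are 10 genes of the X chromosome: MAGEA1, MAGEA3, MAGEA4, MAGEA6, MAGEA8, MAGEA10, MAGEA11, MAGEA12, MAGEC1 and MAGEC2. They were selected on these data, because MAGEA11 and MAGEA10 had almost no RNA under a parental label and clear RNA under a resistant one, so their differences between resistant and parental cells are descriptions and carry no test. Of the 10 genes, 9 were listed in at least 1 of the deposited tables, which together list 34496 genes. MAGEA8 was listed in none of them.

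MAGE genes of type I are expressed in the male germ line, are silent in most other adult tissues, and are switched on in many tumours, often with loss of methylation at CpG sites of their promoters. Peptides of their proteins are shown to T cells by HLA molecules, which made them early targets of tumour vaccines and T cell therapy. The proteins share a MAGE homology domain, through which several of them bind RING ubiquitin ligases, such as MAGEA3, MAGEA6 and MAGEC2 with TRIM28.

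Polyadenylated RNA was measured in 24 libraries from U87-R, U87 MG, LN229-R and LN229 cells, with 3 replicates in each of 8 groups. U87 MG and LN229 are established human glioblastoma lines, and U87-R and LN229-R are their derivatives resistant to temozolomide, an alkylating drug. Each line was given 50 µM STM2457, an inhibitor of the m6A writer METTL3, for 96 h, or the solvent DMSO. The medium of U87-R and LN229-R held 50 µM temozolomide and that of U87 MG and LN229 held none, so resistance and the drug in the medium cannot be told apart. U87 MG and U87-R libraries came from a stranded TruSeq kit and cells in EMEM with 10% serum, and the LN229 and LN229-R libraries from a Watchmaker kit and cells in DMEM with 5% serum. The labels do not say that replicates came from separate cultures, so p-values may measure only technical spread between these samples, nor do they say whether a resistant line is 1 clone.

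Values are the authors' normalized counts, in 6 tables of 6 libraries that were each normalized alone. Library sums of these values ran from 21232924 to 25349361 in the U87 tables and from 24101385 to 28716587 in the LN229 tables. The LN229 names conflicted between tables. Each DMSO library stood in 2 tables, and all 6 LN229 columns of the table of resistant against parental cells were closest to the like-numbered library of the other name in the STM2457 tables. The SD of the log2 ratio over genes was 0.0579 to 0.0619 for that match and 0.346 to 0.406 for the like-named library. In the U87 tables all 6 columns matched their own name, with an SD of 0.0582 to 0.06. LN229 values are therefore given for the libraries as labelled in the table named, and their direction between resistant and parental cells reverses if the STM2457 tables hold the right names.

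Glioma and glial markers (VIM, NES, CD44, GFAP, S100B, SOX2 and OLIG2) summed to at least 73218 normalized counts in every library. In the U87 tables this sum was mostly VIM and CD44, and SOX2 was near 0 or not listed. Group means there were at most 5.6 for S100B and 21.6 for GFAP. In libraries labelled LN229, S100B averaged 3553 ± 920 with STM2457 and 13844 ± 1017 with DMSO, and CD44 32284 ± 2695 and 13682 ± 858 (SD, n = 3). Germ cell markers summed to at most 14.33 in DMSO libraries, with 1 to 6 of 8 listed per table. The melanocyte list summed to 34428 to 58541 in the LN229 tables and 220.6 to 397.4 in the U87 tables, mostly SOX10 in the LN229 tables. Markers of this list moved with STM2457 there. DCT had 2972 ± 800 in LN229-R with STM2457 and 11.5 ± 6.56 with DMSO, and 5288 ± 2837 in LN229 with STM2457 and 41.4 ± 15.1 with DMSO (SD, n = 3). TYR averaged 11.5 in LN229-R and 21.1 in LN229 with STM2457 and was listed at 0 with DMSO, and the list summed to 50634 to 56804 in LN229 with STM2457 and 34428 to 37484 with DMSO. The epithelial list, mostly KRT8 in the U87 tables, summed to 469.3 to 692.5 in U87-R and 236.6 to 314.8 in U87 MG, and to 1870 to 2187 in libraries labelled LN229-R and 1243 to 1533 in LN229 of the resistance table. The blood list stayed at or below 17.9. The part of these cell type markers in the MAGE levels was not tested.

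The promoters of 8 of the 10 genes were found in RefSeq (GRCh38.p14), and MAGEA1 and MAGEA10 did not match. Those of MAGEA11, MAGEA3 and MAGEA12 are printed as those of genes whose level differed widely between cells, and CpG dinucleotides, the sites of DNA methylation, are in capitals. Each window runs from 250 bases before a transcript start to 50 bases after it. MAGEA11 is shown at chrX:149711810-149712109 on the plus strand. That start lies inside the gene, whose span begins at chrX:149688193, and no other MAGEA11 window was found. MAGEA3 is shown at chrX:152698544-152698843 on the plus strand, and the downstream of both MAGEA12 starts at chrX:152733612-152733911 on the plus strand.
MAGEA11: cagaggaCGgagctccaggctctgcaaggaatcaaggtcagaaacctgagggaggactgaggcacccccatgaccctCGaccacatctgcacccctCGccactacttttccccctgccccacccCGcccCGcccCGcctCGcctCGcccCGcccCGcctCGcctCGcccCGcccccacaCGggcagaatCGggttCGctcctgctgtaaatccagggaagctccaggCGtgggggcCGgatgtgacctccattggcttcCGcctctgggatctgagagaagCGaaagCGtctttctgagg
MAGEA3: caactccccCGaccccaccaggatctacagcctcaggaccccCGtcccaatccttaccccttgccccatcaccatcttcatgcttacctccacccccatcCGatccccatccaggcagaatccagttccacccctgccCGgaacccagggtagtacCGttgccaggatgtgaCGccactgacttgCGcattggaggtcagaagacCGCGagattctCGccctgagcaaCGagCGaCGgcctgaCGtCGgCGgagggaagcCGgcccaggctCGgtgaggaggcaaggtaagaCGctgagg
MAGEA12: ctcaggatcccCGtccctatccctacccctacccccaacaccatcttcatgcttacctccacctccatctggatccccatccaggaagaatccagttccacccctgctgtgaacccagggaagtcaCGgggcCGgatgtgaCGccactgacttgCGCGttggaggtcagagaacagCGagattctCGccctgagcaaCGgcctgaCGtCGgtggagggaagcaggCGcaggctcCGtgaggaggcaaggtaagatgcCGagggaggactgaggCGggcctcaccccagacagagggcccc
The MAGEA6 window, at chrX:152769640-152769939 on the minus strand, was identical to that of MAGEA3 in 300 of 300 bases, while the MAGEA12 window was 69.6% identical to it in an alignment. The MAGEA11 window held 21 CpG, those of MAGEA3 and MAGEA6 held 19 and that of MAGEA12 held 15, against a median of 14 over 35116 promoters, with quartiles at 4 and 28. The motif GGGCGG, on either strand, occurred 4 times in the MAGEA11 window and in 45% of all promoters. The motif CCGGAA, on either strand, occurred once in each of the MAGEA3 and MAGEA6 windows and in 17.2% of all promoters. None of these windows held both motifs, and some GGGCGG matches in the MAGEA11 window share a base with the next. Methylation was not measured here.

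The copies limit what can be read for some genes. In GENCODE 29 transcripts, 56.5% of the 50-base windows of MAGEA3 and 53.9% of those of MAGEA6 also occurred in another gene, mostly in each other. For MAGEA10 the share was 15.7%, mostly the read-through gene MAGEA10-MAGEA5, and for MAGEA12 it was 13.8%, mostly MAGEA2 and MAGEA2B. For MAGEA1, MAGEA4, MAGEA8, MAGEA11, MAGEC1 and MAGEC2 it was at most 2.69%. Values of MAGEA3, MAGEA6, MAGEA2, MAGEA2B, CSAG2 and CSAG3 are uncertain between copies.

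The summed RNA of the MAGE genes was far higher in LN229 cells than in U87 cells, though MAGEC1 and MAGEC2 were higher in U87 cells, and each line had its own combination. In the plot of group means along the chromosome, MAGEA1 was the gene with the highest mean in U87-R, and a block of genes from MAGEA3 to MAGEA6 had high means in both LN229 lines. The members together made up 35 to 61.4 of every 1000000 normalized counts in U87-R with STM2457, 31.4 to 52.5 in U87-R with DMSO, 12.6 to 20.6 in U87 MG with STM2457 and 10.2 to 13.8 in U87 MG with DMSO. They made up 255 to 323 of every 1000000 in LN229-R with STM2457, 240 to 301 in LN229-R with DMSO, 216 to 245 in LN229 with STM2457 and 224 to 240 in LN229 with DMSO. Kit, medium and table differ with the background, so the gap between U87 and LN229 cells cannot be told apart from them. In bulk RNA, fewer cells with a transcript and less of it per cell cannot be told apart.

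**Figure D1:**
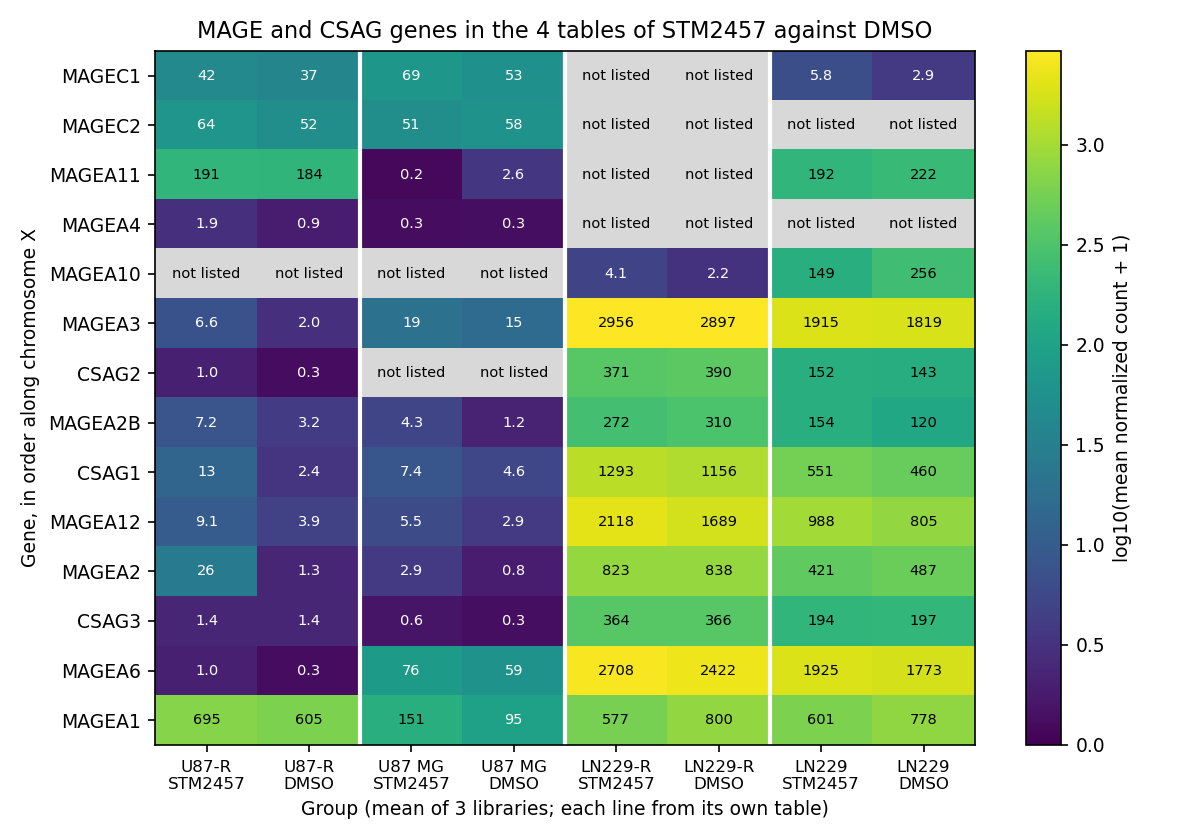
Mean normalized counts (3 libraries each) of 9 MAGE members and their MAGEA2 and CSAG neighbours, in order along chromosome X, in the 4 tables of STM2457 against DMSO. Colour is log10 of the mean plus 1, and grey marks a gene that the table does not list. MAGEA3 to MAGEA6 are high in both LN229 lines, MAGEA11 has 191 and 184 in U87-R, and MAGEC1 and MAGEC2 have 37 to 69 in the U87 lines.

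Per kilobase of the longest transcript, the order of the levels also differed. In DMSO-treated U87-R, MAGEA1 had 353.6 normalized counts per kb, MAGEA11 98.5, MAGEC2 25.9 and MAGEC1 8.57, and the rest had less. In DMSO-treated U87 MG, MAGEA1 had 55.5 per kb, MAGEA6 33.8, MAGEC2 29.3, MAGEC1 12.5 and MAGEA3 8.61, and neighbours among the first 3 had overlapping counts. In the libraries labelled LN229 with DMSO, MAGEA3 had 1033 per kb and MAGEA6 1006, MAGEA12 457.2 and MAGEA1 455.3, then MAGEA11 119.1 and MAGEA10 93.4. Within the pairs MAGEA3 and MAGEA6, and MAGEA12 and MAGEA1, the differences were within the spread of the libraries. In those labelled LN229-R with DMSO the order was MAGEA3 with 1644, MAGEA6 with 1374, MAGEA12 with 959.2 and MAGEA1 with 468.0, and MAGEA10 had 0.795.

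U87-R cells had RNA of MAGEA11, an antigen of the MAGEA family, where U87 MG cells had almost none. MAGEA11, at chrX:149688193-149717268, had 162.0, 158.8 and 283.8 normalized counts in U87-R and 1.19, 1.21 and 3.31 in U87 MG. The groups lay far apart, and replicate 3 was highest in each. The ratio of the means was 106, and the log2 change 6.15 (SE 0.44), a value that rests on the pseudocount of 1. MAGEA1, the founding member, whose peptides were the first of the family found to be seen by T cells, had 463.5, 479.6 and 898.7 in U87-R and 50.9, 91.7 and 119.1 in U87 MG. All U87-R libraries were above all U87 MG libraries, by a log2 change of 2.81 (SE 0.35).

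MAGEA6 and MAGEA3, which form ubiquitin ligases with TRIM28, were lower in U87-R. MAGEA6, at chrX:152766136-152769689, had 0.929, 0 and 0 in U87-R and 52.6, 41.7 and 72.0 in U87 MG. The log2 change was -5.47 (SE 0.58), again set in part by the pseudocount. MAGEA3, at chrX:152698794-152702347, had 0.947, 1.02 and 4.24 in U87-R and 9.86, 15.1 and 16.9 in U87 MG, and was below the mean of 10 asked for a fit. Their sum, which does not depend on how reads were divided between these copies, averaged 2.38 ± 1.67 in U87-R cells and 69.4 ± 17.1 in the U87 MG parent (SD, n = 3). MAGEA6 took 73.4 to 84.2% of that sum in U87 MG.

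MAGEC2, whose protein binds TRIM28, and MAGEC1, a related antigen with a long repeat region, had no gap between these lines. MAGEC2 had 58.4, 59.4 and 40.1 in U87-R and 61.7, 43.1 and 57.0 in U87 MG, and the groups overlapped. MAGEC1 had 27.3, 29.7 and 55.0 in U87-R and 49.7, 46.8 and 51.7 in U87 MG, with replicate 3 of U87-R above all U87 MG libraries. MAGEA12 and MAGEA4 stayed at or below 6.98 in every library of this table, and MAGEA10 was not listed in it. Of 16306 genes fitted, 4.27% differed at an adjusted p under 0.05. No call is given for the members, since they were chosen on this difference.

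**Figure D2:**
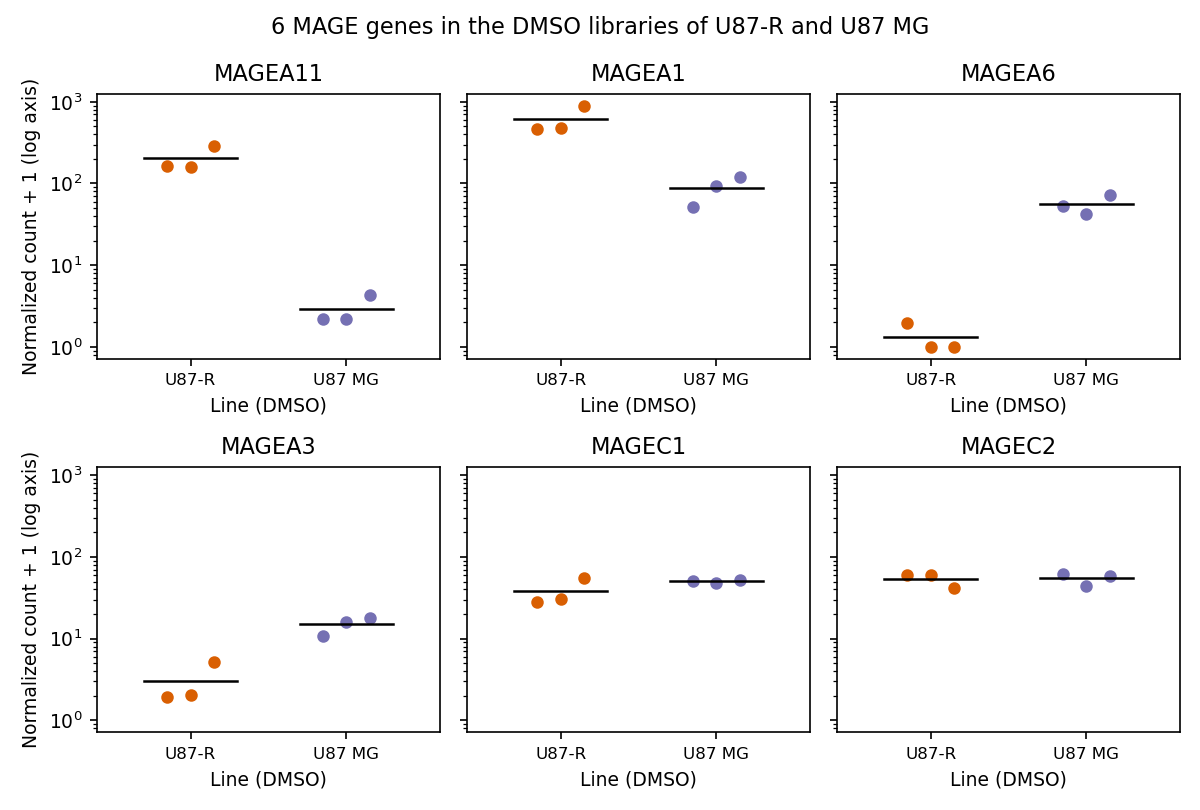
Normalized counts plus 1 (log axis) of 6 MAGE genes in the 3 U87-R and 3 U87 MG libraries with DMSO, from the table of resistant against parental cells. Points are libraries in the order of their replicate number and bars are means. MAGEA11 and MAGEA1 are higher and MAGEA6 and MAGEA3 lower in all U87-R libraries, while MAGEC1 and MAGEC2 overlap.

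The STM2457-treated libraries come from the same lines and tables, so their levels are a further description and not independent of the choice of genes. MAGEA11 had 135.7, 175.3 and 261.8 in U87-R with STM2457, against 0, 0.611 and 0 in U87 MG with STM2457. MAGEA1 averaged 695.0 ± 243 in U87-R and 151.3 ± 51.4 in U87 MG with STM2457, and MAGEA6 averaged 0.988 ± 0.986 in U87-R and 75.8 ± 24.7 in U87 MG with it (SD, n = 3). Neither gene had overlapping libraries. These groups stand in tables normalized separately, so no test was run across them.

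In the table of resistant against parental LN229 cells, 2 genes had RNA in the libraries labelled LN229-R and almost none in those labelled LN229. MAGEA11 had 278.6, 274.7 and 281.5 in LN229-R and 2.36, 0 and 0.532 in LN229 (log2 change 7.34, SE 0.44). MAGEA10, a nuclear antigen at chrX:152133310-152138577, had 277.9, 285.7 and 319.0 in LN229-R and 0, 2.00 and 4.47 in LN229 (log2 change 6.86, SE 0.56). Both log2 changes move with the pseudocount, and in the STM2457 tables the same libraries carry the other name. There MAGEA11 was not listed in LN229-R and had 221.9 ± 2.57 in LN229 with DMSO, and MAGEA10 had 2.18 ± 2.26 in LN229-R and 255.9 ± 19.1 in LN229 (SD, n = 3). MAGEA11 and MAGEA10 RNA was thus high in 1 of the LN229 lines in every table, and the tables differ on whether that line is the resistant one.

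The other MAGEA genes of LN229 cells had RNA in both lines. MAGEA12, a close relative of MAGEA2, had 926.9, 864.0 and 925.7 in the libraries labelled LN229-R of the resistance table and 1828, 1551 and 1737 in LN229, with no overlap (log2 change -0.91, SE 0.09). MAGEA3 had 2132, 1909 and 2102 in LN229-R and 3163, 2603 and 2982 in LN229 (-0.51, SE 0.10). MAGEA6 had 2027, 1892 and 2077 in LN229-R and 2676, 2120 and 2527 in LN229, and its groups were separate by a narrow gap (-0.28, SE 0.10). MAGEA1 had 902.7, 862.4 and 862.5 in LN229-R and 913.7, 648.3 and 853.7 in LN229, so that replicate 2 of LN229 was low and the groups overlapped. MAGEA4, MAGEC1 and MAGEC2 were not listed in this table. Of 17136 genes fitted, 9.25% differed at an adjusted p under 0.05, and no call is given for the members here either. With the replicate as a block, 2600 rather than 1585 genes of this comparison passed.

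**Figure D3:**
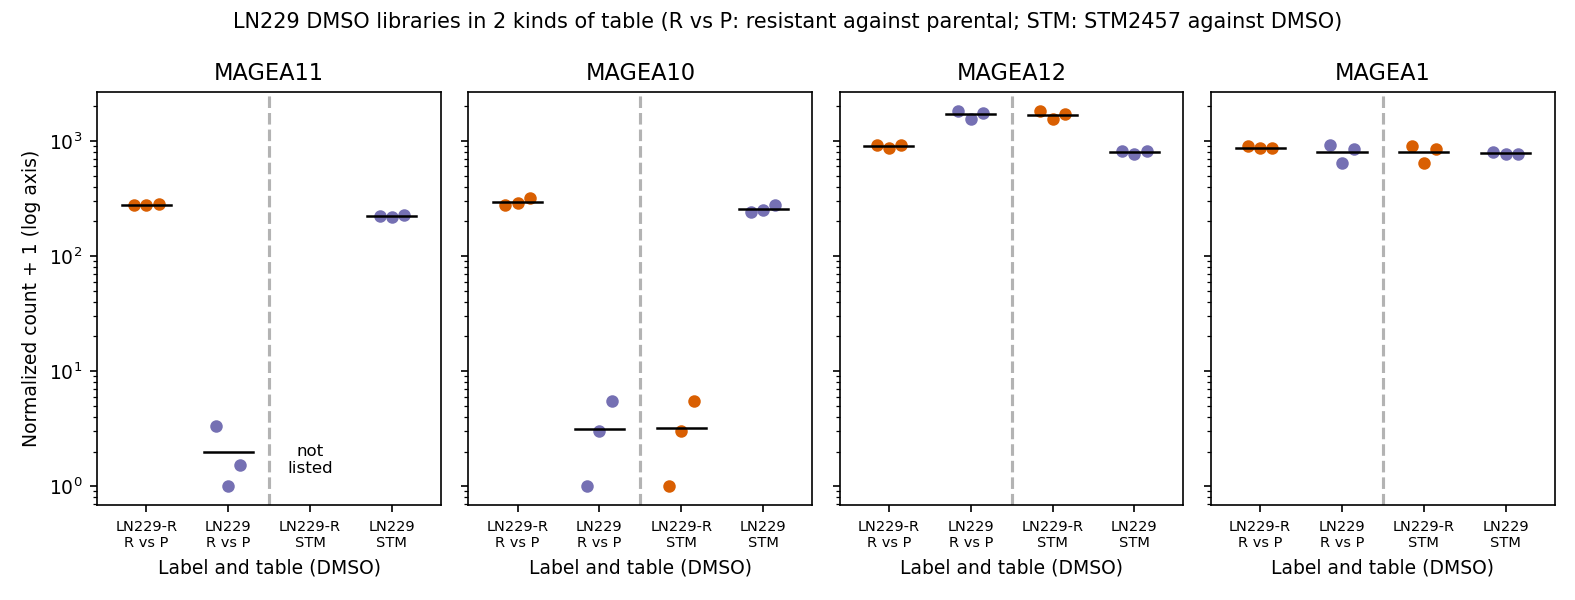
Normalized counts plus 1 (log axis) of 4 MAGE genes in the LN229 libraries with DMSO, left of the dashed line in the table of resistant against parental cells and right of it in the tables of STM2457 against DMSO. Points are libraries by replicate number and bars are means. MAGEA11 and MAGEA10 are high under the name LN229-R on the left and LN229 on the right, MAGEA12 is the lower under those names, and MAGEA1 overlaps.

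With STM2457, MAGEA10 and MAGEA1 fell and MAGEA12 rose in LN229 cells, and in U87-R, U87 MG and LN229-R no member passed. MAGEA10 had 128.7, 207.9 and 111.6 in the libraries labelled LN229 with STM2457 and 241.3, 248.9 and 277.5 with DMSO. All treated libraries were lower, by a log2 change of -0.82 (SE 0.23; limma, Benjamini-Hochberg adjusted p = 0.017). MAGEA1 had 674.0, 481.5 and 648.3 with STM2457 and 801.1, 767.7 and 766.7 with DMSO (-0.39, SE 0.13; limma adjusted p = 0.0412). MAGEA12 had 1093, 880.0 and 990.0 with STM2457 and 822.8, 769.4 and 823.1 with DMSO (0.29, SE 0.10; limma adjusted p = 0.0425). The treated and control libraries of these 3 genes did not overlap, but each call was lost without certain single libraries. For MAGEA10 these were replicate 1 with STM2457 or 3 with DMSO, for MAGEA1 replicate 2 with STM2457 or any DMSO replicate, and for MAGEA12 every replicate but 2 with STM2457. The limma adjusted p was then at most 0.0643, 0.114 and 0.125 in that order of genes.

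MAGEA11 had 223.4, 173.4 and 180.5 in LN229 with STM2457 and 221.8, 219.4 and 224.5 with DMSO, and did not pass (-0.21, SE 0.14; limma adjusted p = 0.246). MAGEA3 and MAGEA6 had log2 changes of 0.07 (SE 0.09) and 0.12 (SE 0.08) and did not pass. So 3 of 6 members passed in LN229, against 49.7% of 17107 genes, which is close to the share of all genes. MAGEC1, with means of 5.83 with STM2457 and 2.91 with DMSO, was below the filter.

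In the libraries labelled LN229-R, 0 of 4 members passed, against 38.6% of 17063 genes, but like-numbered libraries deviated together, and with the replicate as a block MAGEA1 and MAGEA12 passed. MAGEA1 had 674.6, 335.8 and 721.1 in LN229-R with STM2457 and 906.0, 645.9 and 849.1 with DMSO. Replicate 2 was low in each group, and the log2 change was -0.53 (SE 0.29; limma adjusted p = 0.176, and 0.0246 with the replicate block). MAGEA12 had 2286, 1786 and 2282 with STM2457 and 1806, 1540 and 1722 with DMSO (0.32, SE 0.13; limma adjusted p = 0.087, and 0.0226 with the block). MAGEA3 and MAGEA6 had log2 changes of 0.02 (SE 0.15) and 0.16 (SE 0.14), and MAGEA10 stayed at or below 5.05.

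In U87-R, 0 of 4 members passed, against 14.7% of 16185 genes, and in U87 MG 0 of 5, against 13.6% of 16407. MAGEA11 had 147.5, 143.9 and 259.4 in U87-R with DMSO beside the treated values above, and its log2 change was 0.06 (SE 0.30). MAGEA1 had 107.5, 138.6 and 207.9 in U87 MG with STM2457 and 55.1, 99.5 and 129.9 with DMSO, and did not pass (0.70, SE 0.35; limma adjusted p = 0.222). In U87-R the log2 change of MAGEA1 was 0.22 (SE 0.30), that of MAGEC1 -0.10 (SE 0.59) and that of MAGEC2 0.31 (SE 0.27). In U87 MG those of MAGEA3, MAGEA6, MAGEC1 and MAGEC2 lay between -0.18 and 0.33, and MAGEA11, with treated values of 0, 0.611 and 0 and control values of 1.59, 1.63 and 4.47, was below the filter.

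**Figure D4:**
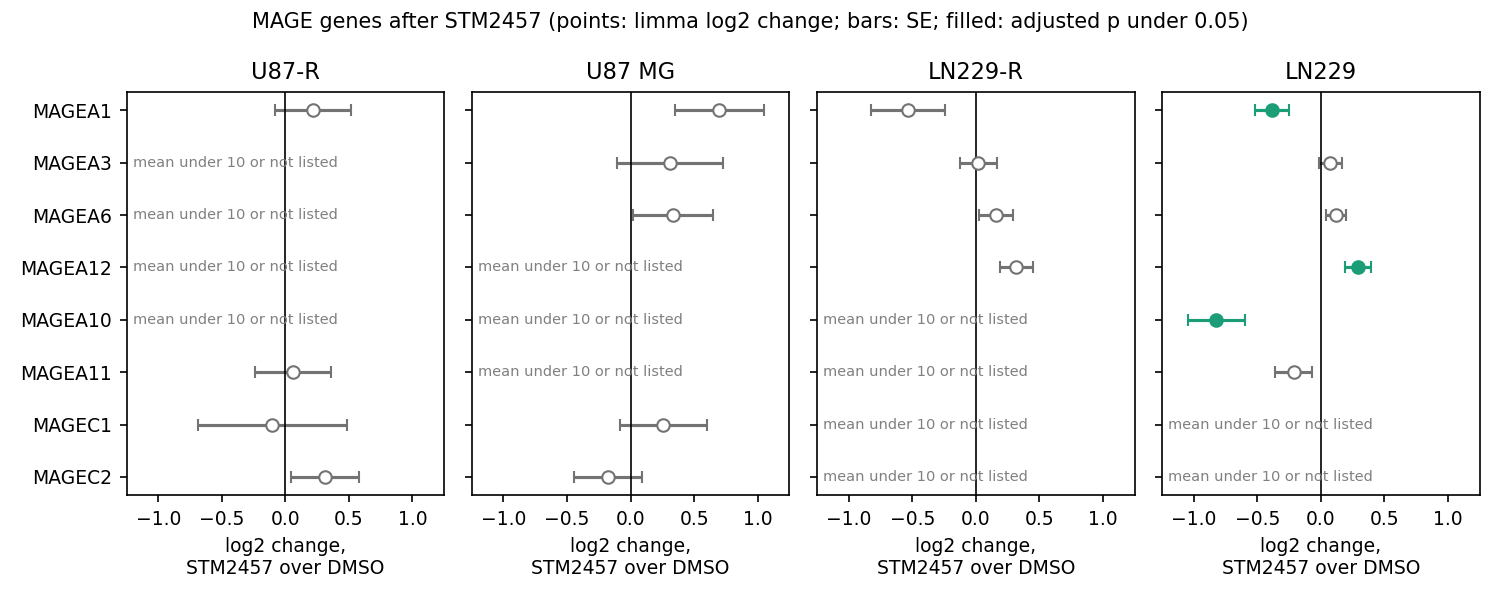
Log2 change of MAGE genes with STM2457 over DMSO in U87-R, U87 MG, LN229-R and LN229 (points, limma estimates; bars, SE; 3 against 3 libraries per line). Filled points have an adjusted p under 0.05, and rows without a point had a mean under 10 or were not listed. MAGEA10 at -0.82, MAGEA1 at -0.39 and MAGEA12 at 0.29 in LN229 are the filled points.

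Members with a mean of at least 10 in both tables were tested for a different STM2457 effect in the resistant and the parental line, and none passed. MAGEA10 and MAGEA11 were not among them, so this question was not tested for them. In the U87 lines the effect on MAGEA1 was -0.48 (SE 0.51) on the log2 scale in U87-R relative to U87 MG, and MAGEC1 and MAGEC2 had differences of -0.36 (SE 0.74) and 0.49 (SE 0.36). In the LN229 lines the 4 differences lay between -0.15 and 0.04. With limma, 0 of 3 members passed in U87, against 0% of 15680 genes (586 at an unadjusted p under 0.05), and 0 of 4 in LN229, against 0.00606% of 16511 genes (651 unadjusted). The largest SE, that of MAGEC1, leaves room for a sizeable difference.

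The MAGEA2 and CSAG genes lie between MAGEA3 and MAGEA6 and are no members. MAGEA2, a copy of MAGEA2B that binds p53, was higher in U87-R with STM2457. It passed the filter only through the treated libraries, so no call is read from it. MAGEA2 had 28.2, 18.6 and 29.8 with STM2457 and 0, 0 and 3.99 with DMSO (log2 change 3.93, SE 0.77). The sum of MAGEA2 and MAGEA2B was 32.8 ± 8.18 with STM2457 and 4.52 ± 5.70 with DMSO (SD, n = 3). CSAG1, a cancer-testis gene next to MAGEA12, had 10.0, 16.9 and 10.7 in U87-R with STM2457 and 1.96, 2.98 and 2.17 with DMSO, without overlap but below the filter. MAGEA12 had 6.81, 9.60 and 10.8 with STM2457 and 3.68, 6.88 and 1.08 with DMSO, and MAGEA6 stayed at or below 1.97. In the resistance table CSAG1 and CSAG2 were lower in libraries labelled LN229-R, by log2 changes of -1.15 (SE 0.11) and -1.38 (SE 0.22), as MAGEA12 was.

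Among 54 other cancer-testis genes of the X chromosome, 3 rose and 3 fell of the 10 tested in libraries labelled LN229-R against LN229, against 9.25% of all genes called there, and 2 rose of 3 tested in U87-R against U87 MG, against 4.27%. XAGE1B, an antigen with a near-identical copy XAGE1A, had 64.2 ± 7.93 in LN229-R and was listed at 0 in LN229, and SSX1 had 74.1 ± 7.91 and 0.982 ± 1.03 (SD, n = 3). Under the STM2457 tables' names these genes were on in LN229, with MAGEA10 and MAGEA11. There SSX1 fell with STM2457 (log2 change -1.45, SE 0.24; limma adjusted p = 0.00163). XAGE1B had 5.33 ± 5.58 with STM2457 and 55.4 ± 6.82 with DMSO there, while XAGE1A had 51.1 ± 5.21 and 7.06 ± 4.09, and the sum of these copies was 56.5 ± 7.02 with STM2457 and 62.5 ± 9.06 with DMSO (SD, n = 3), so their changes cannot be told apart from a shift of reads between copies. In U87-R, SAGE1 (2.71, SE 0.58) and CT45A10 (2.44, SE 0.53), which is 1 of several near-identical copies, rose. SAGE1 did not pass without U87-R replicate 2 or 3 or U87 MG replicate 2 or 3 (limma adjusted p up to 0.139), nor CT45A10 without U87-R replicate 2 or 3 or U87 MG replicate 1 or 2 (up to 0.127). PAGE5, which also rose in libraries labelled LN229-R, had 18.5 ± 7.42 there and 1.67 ± 0.346 in LN229 (SD, n = 3), and was not called without LN229-R replicate 3. SAGE1, XAGE1B, SSX1 and PAGE5 passed the filter only through the group where they are high. Nothing is therefore read from the counts of this list between resistant and parental cells.

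Among the genes that work with MAGE proteins, TRIM28, the ligase partner of MAGEA3, MAGEA6 and MAGEC2, fell with STM2457 in LN229-R (-0.79, SE 0.13; limma adjusted p = 0.00277) and LN229 (-0.89, SE 0.08; limma adjusted p = 8.12e-05). SKP2, an F-box protein of another ubiquitin ligase, fell in all 4 lines, by log2 changes of -0.75 (SE 0.14) in U87-R, -0.58 (SE 0.14) in U87 MG, -1.55 (SE 0.21) in LN229-R and -1.80 (SE 0.09) in LN229. The call of SKP2 was lost in U87-R without replicate 2 of either group (limma adjusted p up to 0.0543), and in U87 MG without STM2457 replicate 1 or 2 or DMSO replicate 2 or 3 (up to 0.109). Of the partner genes, 1 rose and 1 fell of 15 tested in U87-R, and 1 rose and 1 fell of 15 in U87 MG. In LN229-R 2 rose and 6 fell of 14, and in LN229 2 rose and 7 fell of 15. The shares of all genes that passed were 14.7, 13.6, 38.6 and 49.7% in that order of lines. With the replicate block, 4796 rather than 2373 genes passed in U87-R.

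The type II MAGE genes, which are expressed in many adult tissues, included a few that passed in each line. NSMCE3, a subunit of the SMC5/6 complex, rose with STM2457 in U87-R (0.70, SE 0.12), U87 MG (0.61, SE 0.10), LN229-R (1.44, SE 0.10) and LN229 (1.41, SE 0.09). MAGEF1, a single-exon member of the family, rose in the same 4 lines, by 0.47 to 0.74, but did not pass in U87-R when any library other than DMSO replicate 3 was left out (limma adjusted p up to 0.124). MAGED1 fell in LN229-R (-1.32, SE 0.13) and LN229 (-1.19, SE 0.11). NDN, the imprinted gene of necdin, fell in U87-R against U87 MG (-1.62, SE 0.25; limma adjusted p = 0.00852, and 0.0515 without U87 MG replicate 2). It had 24.2 ± 7.33 in libraries labelled LN229-R and was listed at 0 in LN229. MAGED4 (0.83, SE 0.16; limma adjusted p = 0.0201) and its near-identical copy MAGED4B (1.38, SE 0.32; limma adjusted p = 0.0498) rose in U87-R against U87 MG, but neither call held without certain single libraries. For MAGED4 these were U87-R replicate 2 or 3 or U87 MG replicate 1 or 2 (limma adjusted p up to 0.099), and for MAGED4B any library but U87 MG replicate 1 (up to 0.169). Of 11 genes of this list, 3 of 9 tested passed in U87-R, 3 of 10 in U87 MG, 6 of 8 in LN229-R and 6 of 9 in LN229 with STM2457, against 14.7, 13.6, 38.6 and 49.7% of all genes.

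Of 29 genes of DNA methylation and other silencing, and of factors reported at MAGE promoters, 0 passed in U87-R against U87 MG. There 4.27% of all genes were called, and nothing is read from this count. The limma log2 changes of the 29 lay between -0.36 and 0.60 (adjusted p from 0.0689), and 4 of them had an unadjusted p under 0.05. In LN229-R against LN229, ETS2 (-0.89, SE 0.16) and TET1 (-0.66, SE 0.16) were lower and 27 did not pass, against 9.25% of all genes called. ETS2 was not called without LN229-R replicate 1 or 2 or LN229 replicate 3 (limma adjusted p up to 0.0591), nor TET1 without any library other than LN229 replicate 2 (up to 0.157). With STM2457, 1 of the 29 rose and 1 fell in U87-R, 1 rose and 2 fell in U87 MG, 5 rose and 6 fell in LN229-R, and 6 rose and 10 fell in LN229, where the shares of all genes called were 14.7, 13.6, 38.6 and 49.7%. The largest changes among called genes were rises of the transcription factors ETS2 and ETS1, by 1.46 (SE 0.16) and 1.32 (SE 0.32) in LN229-R and by 1.55 (SE 0.13) and 1.42 (SE 0.16) in LN229. A gene that did not pass had a log2 change of -1.34 in LN229-R. EZH2, the methyltransferase of histone H3 lysine 27, fell in U87-R (-0.88, SE 0.13) and LN229-R (-1.05, SE 0.22) and passed as a fall in U87 MG and LN229 too. SUV39H1, a methyltransferase of histone H3 lysine 9, rose in U87-R (0.70, SE 0.20), but did not pass without STM2457 replicate 2 or 3 or DMSO replicate 1 or 2 (limma adjusted p up to 0.137).

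Other cancer-testis genes of autosomes were mostly not tested for low values. Of 12 tested, 0 passed in LN229-R against LN229, against 9.25% of all genes, and 2 fell in U87-R against U87 MG, against 4.27%. These were ACTL8, by 4.20 (SE 0.42), and CEP55, by 0.59 (SE 0.12) on the log2 scale. CEP55 was not called when any library other than U87 MG replicate 1 was left out (limma adjusted p up to 0.146). With STM2457, 1 rose and 1 fell of 13 tested in U87-R, and 1 fell of 12 in U87 MG. In LN229-R 1 fell of 11, and in LN229 5 fell of 10. The shares of all genes called were 14.7, 13.6, 38.6 and 49.7% in that order of lines. PRAME rose in U87-R with STM2457 (2.56, SE 0.54; limma adjusted p = 0.0155, and 0.0586 without STM2457 replicate 2), and KIF2C, a mitotic kinesin, fell in LN229 (-1.21, SE 0.23). Among germ cell markers, SYCP3 of the meiotic chromosome axis was higher with STM2457 in LN229-R (3.27, SE 0.37) and LN229 (1.88, SE 0.62). It passed the filter only through the treated libraries (means of 37.2 and 17.3, against 2.97 and 4.76 with DMSO), so no call is read from it. There the germ list summed to 36.8 to 55.6 and 10.3 to 24.4 with STM2457, and to 13.4 to 55.8 in U87 MG. In LN229 SYCP3 did not pass without STM2457 replicate 1 or 2 or DMSO replicate 2 or 3 (limma adjusted p up to 0.109). The part of this rise in the changes of MAGEA1, MAGEA10 and MAGEA12 was not tested.

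Of 42 genes that flank the MAGE clusters, 23 were tested in U87-R against U87 MG, of which 2 rose and 1 fell against 4.27% of all genes called, and 26 in LN229-R against LN229, of which 4 rose and 2 fell against 9.25%. LDOC1, a gene on the centromere side of MAGEC1, fell in U87-R (-6.29, SE 0.73), and SLITRK4, a neuronal membrane protein, rose in LN229-R (5.19, SE 0.41). SLITRK4 passed the filter only through the group where it is high. The medians of the tested neighbours were 0.17 and 0.08, against -0.01 over all genes in each comparison.

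The genes most like MAGEA11 over the 8 group means of the STM2457 tables were DENND2A, EEFSEC, L1CAM, TCL6 and PTGS1, with Pearson's r of 0.94, 0.936, 0.926, 0.905 and 0.893 of log2 values among 13120 candidates listed in all 4 tables. For MAGEA10 they were TP53I11, PTP4A3, CP, SELENOP and SLC25A10, with r of 0.98, 0.977, 0.976, 0.976 and 0.968. A table that did not list MAGEA10 or MAGEA11 was taken as 0. With candidates also taken as 0 where not listed, EFS (0.98), ZNF208 (0.958) and ZNF257 (0.958) came before DENND2A, and ZNF502 (0.993), ASTN1 (0.988) and FGF10 (0.987) before TP53I11. The 8 means come from 4 lines, so that treated and control means share their cells, and r is a description. CP, which encodes ceruloplasmin, had means of 694.3 and 813.8 in LN229 with STM2457 and DMSO, and of 19.5 and 21.6 in LN229-R.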

How the data were processed

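RNA of 24 libraries was measured. The deposited files hold signal, namely normalized counts. Per the submitters' processing notes, Trimmomatic 0.39, STAR 2.7.11a, Salmon 1.4.0 and DESeq2 were used on GRCh38, with order and settings not given in the sources used here. The factors differ between genes, so read depth is unknown and count tests were not run. The members and lists were chosen with earlier results of these data known.

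Values of a table, on the scale of log2(value + 1), were fitted with limma 3.58.1 (R 4.3.3, variance trend) where a gene averaged 10 or more. Adjusted p-values (Benjamini-Hochberg, over all genes of a fit) under 0.05 were called. Symbols came from Ensembl identifiers. All members were named, with at most 5 called genes per list and comparison, largest change first, and the 5 genes most like MAGEA10 and MAGEA11. A tested list gene without a value in the text did not pass or was not among those chosen. A gene of the partner list, and the counts of its list between resistant and parental cells, are not reported here. Like-numbered libraries deviated together, with every correlation of deviations over 0.1, in LN229-R against LN229 (0.114 to 0.204) and in STM2457 against DMSO of U87-R (0.114 to 0.298) and LN229-R (0.102 to 0.321), so the replicate block is given beside results it changed there. The fit was checked on simulated data. Transcript windows and lengths came from GENCODE 29, and figures from matplotlib 3.10.9.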

Additional observations from a re-analysis of the deposited data

How the results depend on the processing

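The fits were repeated with another pseudocount (0.5 or 5), without the filter or with a minimum mean of 50, with libraries scaled to equal totals or upper quartiles, without the variance trend, with the replicate block, and without each library. No called gene reversed its direction, but 8 member changes without a call turned sign under an alternative. With STM2457 these were MAGEA1 (-0.05 to 0.53), MAGEA11 (-0.19 to 0.34) and MAGEC1 (-0.81 to 0.26) in U87-R, MAGEC1 in U87 MG (-0.08 to 0.59), MAGEA3 in LN229-R (-0.09 to 0.15) and MAGEA3 in LN229 (-0.015 to 0.14). The others were MAGEC2 in U87-R against U87 MG (-0.19 to 0.14) and MAGEA1 in LN229-R against LN229 (-0.012 to 0.24). With a pseudocount of 5 the log2 change of MAGEA11 was 4.87 in U87-R against U87 MG, and in libraries labelled LN229-R against LN229 that of MAGEA11 was 5.59 and that of MAGEA10 5.43. With a pseudocount of 0.5 that of MAGEA11 in LN229-R was 7.94. In the STM2457 tables MAGEA10 averaged 2.18 normalized counts in LN229-R and 255.9 in LN229 with DMSO, and MAGEA11 221.9 in LN229. Of the 3 STM2457 calls in LN229, 1 remained without the variance trend, and 0 to 2 when a library was left out. MAGEA12 there was also lost with no filter, equal totals and equal upper quartiles. In LN229-R the replicate block called 2 members rather than 0, and leaving out a library 0 to 1. In U87 MG, where like-numbered libraries did not all deviate together (correlations of 0.039 to 0.186), the replicate block called 1 member, MAGEA1, with a limma adjusted p of 0.0358. The block changed no other call of a member.

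The number of all genes called varied with the alternative from 305 to 1176 in U87-R against U87 MG, where the replicate block gave 1176 (correlations of 0.019 to 0.14), and from 550 to 3139 in LN229-R against LN229. With STM2457 it varied from 882 to 4796 in U87-R, from 890 to 4137 in U87 MG, from 4321 to 8444 in LN229-R and from 6564 to 8928 in LN229. In the differences between STM2457 effects it was 0 to 1 in U87 and 1 to 4 in LN229. Scaling moved the median of all genes by at most 0.09 on the log2 scale. The causes were not tested. Levels near 0 limit MAGEA10, MAGEA11, and MAGEA3 and MAGEA6 in U87-R most, since a log2 change from such a level depends on the pseudocount. The division of reads between copies limits MAGEA3 and MAGEA6 at any pseudocount.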
